A study of Drosophila melanogaster with 13 samples.

Results

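The genes described here make up the dosage compensation machinery of Drosophila melanogaster and the upper steps of its sex determination pathway. They are the noncoding RNAs roX1 and roX2, the protein-coding genes msl-1, msl-2, msl-3, mle and mof, and the sex determination genes Sxl and tra. They were chosen by name, not by their level, and all 9 were found among the 17753 genes of the count table. All 9 passed the filter on low counts, which 8908 genes passed in all. roX2, with 5 counts or fewer in every control library, passed because of libraries in the RNA interference groups.

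RNA had been taken by patch pipette from MN1-Ib motoneurons, identified glutamatergic cells of the ventral nerve cord, in larvae of instar 3. All groups carried the same driver and reporter, MN1-Ib-GAL4 with UAS-mCD8:GFP, and the driver restricts the interfering RNA to the cells in which it is active. The groups were Notch+Shal RNAi (3 libraries), in which RNA interference was directed at both Notch and Shal, Shal RNAi (3 libraries), Notch RNAi (4 libraries) and Control (3 libraries), which carried driver and reporter only. Each library is an independent reaction that pooled 4 to 8 cells from 1 or 2 larvae, and the labels do not give the sex of the larvae.

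In Drosophila males the single X chromosome is transcribed at a raised rate by the MSL complex, in which the MSL-1, MSL-2, MSL-3, MLE and MOF proteins assemble with a roX RNA on X-linked genes. In females the RNA-binding protein Sex-lethal, made from Sxl, blocks production of the MSL-2 protein and directs the splicing of tra, whose product in turn directs the splicing of doublesex and fruitless. Both roX RNAs are known for high levels in male cells and low levels in female ones, whereas the transcripts of msl-1, msl-3, mle, mof, Sxl and tra occur in both sexes, with sex-specific splicing of Sxl and tra. The table counts reads per gene, so male and female splice forms of Sxl and tra are summed.

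Libraries held 3783100 to 9319116 counts. The floor used below, 3 counts, thus equals 0.322 to 0.793 CPM (counts scaled to library size). Genes of motoneurons and neurons were present throughout, with VGlut, the vesicular glutamate transporter, at 401 to 2841 CPM in the 13 libraries. Shal had 77.2, 37.8 and 20.5 CPM in the libraries labelled Notch+Shal RNAi and 53.3, 112 and 135 CPM in those labelled Shal RNAi, against 5.10, 94.97 and 45.4 CPM in Control. N, the Notch gene, had 16.3, 20.4 and 329 CPM in those labelled Notch+Shal RNAi and 23.6, 19.4, 20.9 and 294 CPM in those labelled Notch RNAi, against 31.5, 28.8 and 229 CPM in Control. In CPM the targeted transcripts thus overlapped with Control. The log2 fold change of Shal for Shal RNAi against Control was 1.72 (SE 0.83), with an adjusted p of 0.424 in edgeR's quasi-likelihood test. For Notch+Shal RNAi against Control it was -0.05 (SE 0.83). That of N against Control was 0.64 (SE 1.10) for Notch+Shal RNAi and -0.16 (SE 1.03) for Notch RNAi. The group names below are the labels of the libraries. Shal RNAi libraries held fewer detected genes, 7758 ± 427 against 9138 ± 119 in Control (SD, n = 3 each), and a larger mitochondrial share of counts, 10.1% ± 4.25 against 2.51% ± 0.110. Transcripts of other cells were also present. Markers of hemocytes (5 genes) summed to 68.8 to 528 CPM in Notch+Shal RNAi, 21.3 to 90.3 CPM in Shal RNAi and 8.90 to 135 CPM in Notch RNAi, against 39.0 to 42.7 CPM in Control, and markers of glia (5 genes) to 28.1 to 97.8, 16.3 to 204 and 28.8 to 757 CPM in the same groups, against 127 to 256 CPM in Control. Notch+Shal RNAi thus lay above Control for the hemocyte sum and below it for the glial sum, without overlap, and the other groups overlapped with Control. The glial sum was uneven: Gs2 had 16.3 to 755 CPM, Eaat1 at most 61.9 and moody at most 76.6 CPM. The glial genes repo and alrm were at 0 in 11 and in all 13 libraries. The 6 fat body genes summed to 1421 to 18399 CPM in Notch+Shal RNAi, 5334 to 9443 CPM in Shal RNAi and 1827 to 8663 CPM in Notch RNAi, against 5034 to 15720.5 CPM in Control, with overlap throughout. The 5 muscle genes summed to 96.5 to 573 CPM in Notch+Shal RNAi and 380 to 1807 CPM in Shal RNAi. In Notch RNAi they summed to 100 to 1332 CPM, against 443 to 1841 CPM in Control, also with overlap throughout. The part of these cells in the values below was not tested.

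roX1 (FBgn0019661) lies on the minus strand of the X chromosome at 3857230 to 3862697 in the BDGP6.54 annotation, which lists it as a noncoding RNA with 5 transcripts. Its level was 3823, 1289 and 52.5 CPM in the libraries of Notch+Shal RNAi, 88.0, 1078 and 2620 CPM in those of Shal RNAi and 1926, 31.3, 2392 and 64.3 CPM in those of Notch RNAi, against 23.1, 13.5 and 7.73 CPM in Control. Each RNA interference group held libraries at both a high and a low level, and all 10 of these libraries were above all 3 Control libraries. Between the 6 libraries at or above 1078 CPM and the 7 at or below 88.0 CPM lay a 12.3-fold gap. The high level was seen in 2 of 3 Notch+Shal RNAi, 2 of 3 Shal RNAi, 2 of 4 Notch RNAi and 0 of 3 Control libraries. Both roX RNAs together made up 8.00e-04% to 0.395% of all counts in a library. In pooled cells, fewer cells with roX1 and less roX1 per cell cannot be told apart.

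Against Control the groups did not overlap for roX1 in normalised CPM, which TMM factors adjust for composition. Of all tested genes, 2.46% had every library of Notch+Shal RNAi above every Control library, 6.43% every library of Shal RNAi and 1.25% every library of Notch RNAi. The fitted log2 fold change was 6.87 (SE 2.15) for Notch+Shal RNAi, with an adjusted p of 1.00 in edgeR's quasi-likelihood test. For Shal RNAi it was 7.11 (SE 2.17), with an adjusted p of 0.249 in the same edgeR test. For Notch RNAi it was 6.42 (SE 2.09), with an edgeR adjusted p of 0.9995. None of these passes the threshold of 0.05 over all 8908 genes. The 3 comparisons share the Control libraries and are not independent of each other. A 2-sided exact permutation test of mean normalised CPM gave p = 0.1 for the first 2 and p = 0.0571 for the last, the smallest values that 3 against 3 and 4 against 3 libraries allow. Fitted on the Shal RNAi and Control libraries alone, edgeR put roX1 past the threshold, with an adjusted p of 0.00644. DESeq2, run as an alternative on all libraries, put roX1 past the threshold in all 3, with adjusted p of 0.00450, 6.19e-04 and 0.00409 and log2 fold changes of 6.88, 7.17 and 6.40. Leaving out any 1 library left the edgeR log2 fold change between 5.37 and 7.44 for Notch+Shal RNAi, 5.55 and 7.73 for Shal RNAi, and 5.76 and 6.93 for Notch RNAi. The spread within each RNA interference group was about as large as its distance from Control: normalised CPM averaged 1534 ± 1787 in Notch+Shal RNAi, 1808 ± 2146 in Shal RNAi and 1128 ± 1264 in Notch RNAi, against 13.2 ± 7.71 in Control (SD, n = 3, 3, 4 and 3).

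roX2 (FBgn0019660), the shorter of the 2 roX RNAs, lies on the plus strand of the X chromosome at 11579065 to 11580432. Its level was 124, 9.38 and 7.22 CPM under Notch+Shal RNAi, 0.462, 97.2 and 932 CPM in Shal RNAi and 251, 0.634, 208 and 4.02 CPM in Notch RNAi, against 0.671, 0.215 and 0.271 CPM in Control. The Control values are 5, 2 and 2 counts, and the lowest Shal RNAi value is 2 counts, so 3 of these 4 libraries are at or under the floor. In CPM, 8 of the 10 RNA interference libraries were above every Control library. After normalisation all 10 were, but the margin, 0.6247 against 0.6241 normalised CPM, is far less than 1 count.

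The edgeR log2 fold change of roX2 was 6.96 (SE 3.49) for Notch+Shal RNAi against Control, with an adjusted p of 1.00. It was 10.60 (SE 3.29) for Shal RNAi, with an adjusted p of 0.261 by edgeR, and 8.42 (SE 3.28) for Notch RNAi, with an adjusted p of 0.9995 by edgeR. With so few counts in Control these fitted sizes depend on the small count that the fit adds. DESeq2 gave adjusted p of 0.146, 1.90e-05 and 0.00232 in the same order. No other member had every library of an RNA interference group above every Control library in normalised CPM. With all 10 RNA interference libraries above Control there were 8 of 8908 genes (0.0898%). The others among these 8, named after their values were seen, were Hsp70Ba, Spred, Xrp1, cnk, kay and mrva, of which none is X-linked.

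**Figure D1:**
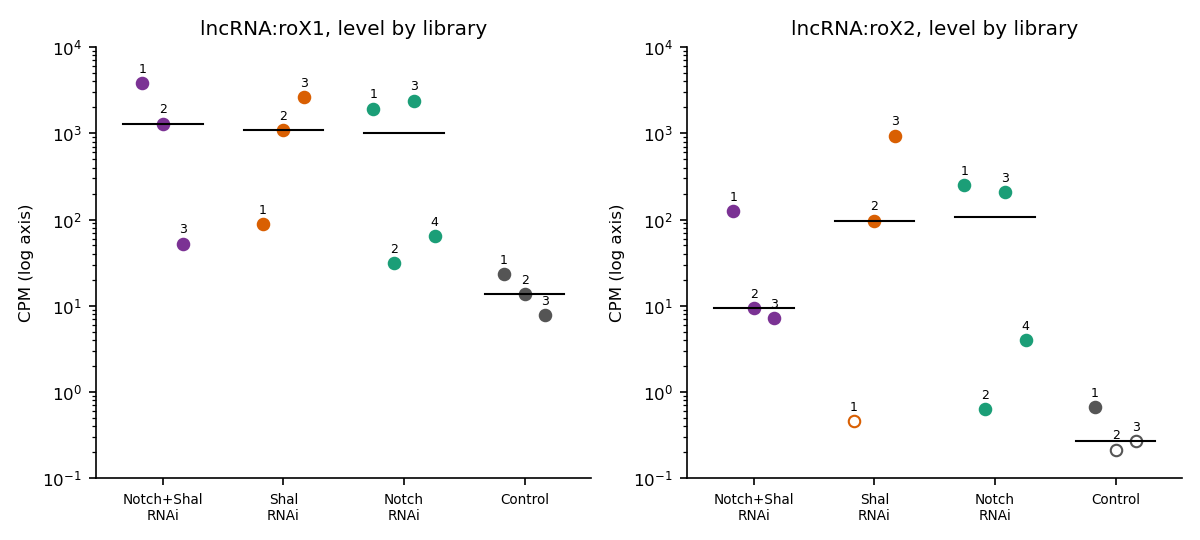
CPM of roX1 (left) and roX2 (right) in each of the 13 libraries, on log axes, by group. Numbers are replicate numbers, lines are group medians and open points hold 3 counts or fewer. Every RNA interference group spans from 88.0 CPM or less to 2392 CPM or more for roX1, and Control stays at or below 23.1 CPM.

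The 6 libraries with the highest roX1 were also the 6 with the highest roX2. The widest gap of roX2 lay elsewhere, however, with 5 libraries at or above 97.2 CPM and 8 at or below 9.38 CPM. Notch+Shal RNAi 2, at 1289 CPM of roX1, was below the roX2 gap. Spearman's rho between them was 0.771 within the 6 libraries above the roX1 gap and 0.857 within the 7 below it, given as a description since the libraries fall into separate levels and differ in depth. Their ratio was not constant. roX2 supplied 3.14%, 0.722% and 12.1% of all roX counts in the libraries of Notch+Shal RNAi and 0.522%, 8.27% and 26.2% in those of Shal RNAi. It supplied 11.5%, 1.98%, 8.01% and 5.88% in those of Notch RNAi, against 2.82%, 1.56% and 3.39% in Control. For Shal RNAi 3, the highest, the exact 95% interval was 25.6% to 26.9%, and for Notch+Shal RNAi 2, with a high roX1 of 1289 CPM, it was 0.577% to 0.892%, so these libraries differ beyond counting error. In Control 3 the interval ran from 0.413% to 11.7%. These intervals cover counting error only, since amplified reads without molecular identifiers are not independent molecules.

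Between the RNA interference groups the roX genes overlapped. The log2 fold change of roX1 was -0.24 (SE 1.61) for Notch+Shal RNAi against Shal RNAi and 0.45 (SE 1.5) against Notch RNAi. For roX2 the same comparisons gave -3.64 (SE 1.98) and -1.46 (SE 1.80). The interaction compares the step from Notch RNAi to Notch+Shal RNAi with the step from Control to Shal RNAi. It was -6.66 (SE 2.55) for roX1, with an adjusted p of 0.494 by edgeR, and -12.06 (SE 3.83) for roX2, with an adjusted p of 0.451 by edgeR. Notch+Shal RNAi and Notch RNAi thus lay closer together than Shal RNAi and Control did, by an amount that did not pass the threshold. DESeq2 put the interaction of roX2 past it (adjusted p = 0.00130) and that of roX1 not (adjusted p = 0.0879).

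The protein-coding subunits of the MSL complex had at most 94.5 CPM in any library. msl-1 (FBgn0005617, chromosome 2L, 18683720 to 18688800) encodes the scaffold on which the complex assembles. It had 22.1, 13.8 and 7.70 CPM under Notch+Shal RNAi, 0, 0.139 and 0 CPM in Shal RNAi and 27.6, 0.127, 15.3 and 12.2 CPM in Notch RNAi, against 27.6, 2.25 and 5.56 CPM in Control. The Shal RNAi libraries together held 1 msl-1 count, against 268 in Control and 322 in Notch+Shal RNAi. Taken as counts per total, the ratio of Shal RNAi to Control was 0.00532, with an exact 95% interval of 1.34e-04 to 0.0299 that covers counting error only.

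Every Shal RNAi library was below every Control library for msl-1, as 11.4% of all tested genes were, and mof showed the same. Every Notch+Shal RNAi library was above every Shal RNAi library for msl-1, alone among the members, as was so for 7.5% of tested genes. The edgeR log2 fold change of msl-1 was -6.81 (SE 3.39) for Shal RNAi against Control, with an adjusted p of 0.436. It was 7.16 (SE 3.25) for Notch+Shal RNAi against Shal RNAi, with an edgeR adjusted p of 0.377. DESeq2 put both past the threshold, with adjusted p of 0.0206 and 0.0147. With 1 count in a group these fitted sizes are no bound. Fewer genes were detected in Shal RNAi, and the part of that difference in the msl-1 and mof values was not tested.

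msl-2 (FBgn0005616, chromosome 2L, 3462218 to 3466112) encodes the RING-finger subunit whose protein is made in males. It had 24.2, 65.7 and 5.30 CPM under Notch+Shal RNAi, 14.8, 0.139 and 0 CPM in Shal RNAi and 18.2, 0, 10.3 and 7.80 CPM in Notch RNAi, against 0.134, 2.90 and 14.0 CPM in Control. The groups overlapped, and the largest log2 fold change against Control was 2.57 (SE 1.28) for Notch+Shal RNAi, with an adjusted p of 1.00 by edgeR. Among the 6 libraries at the high roX1 level, msl-2 was 24.2 and 65.7 CPM in Notch+Shal RNAi 1 and 2 and 18.2 and 10.3 CPM in Notch RNAi 1 and 3, whereas Shal RNAi 2 and 3 had 1 and 0 msl-2 counts.

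msl-3 (FBgn0002775, chromosome 3L, 7123213 to 7125533) encodes a chromodomain protein that binds marks of active chromatin. It had 18.1, 27.0 and 10.4 CPM under Notch+Shal RNAi, 2.08, 18.1 and 0.923 CPM in Shal RNAi and 2.66, 0, 52.1 and 19.6 CPM in Notch RNAi, against 6.31, 15.6 and 23.2 CPM in Control. All groups overlapped, and the log2 fold changes lay between -0.45 and 0.82, each smaller than its SE of 1.05 to 1.63.

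mle (FBgn0002774, chromosome 2R, 5974857 to 5980778) encodes the RNA helicase that remodels roX RNA for the complex. It had 20.6, 94.5 and 11.7 CPM under Notch+Shal RNAi, 20.5, 74.7 and 0 CPM in Shal RNAi and 3.59, 7.23, 34.4 and 56.4 CPM in Notch RNAi, against 29.4, 38.8 and 40.0 CPM in Control. The Control libraries lay close together, with a mean of 36.1 ± 5.83 CPM (SD, n = 3), and the libraries of every RNA interference group lay on both sides of them. The largest log2 fold change in size was 0.80 (SE 0.93), for Notch+Shal RNAi against Notch RNAi.

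mof (FBgn0014340, X chromosome, 5873840 to 5876853) encodes the histone acetyltransferase of the complex. It had 0, 28.6 and 8.03 CPM under Notch+Shal RNAi, 0.462, 0.278 and 0.554 CPM in Shal RNAi and 0.797, 2.16, 1.06 and 28.9 CPM in Notch RNAi, against 3.76, 3.00 and 9.22 CPM in Control. All 3 Shal RNAi libraries were at or under the floor, with 7 counts in all against 124 in Control. The edgeR log2 fold change was -3.04 (SE 2.65) for Shal RNAi against Control, with an adjusted p of 0.634. The exact permutation test of mean normalised CPM for this comparison gave p = 0.1, the lowest value possible with 3 libraries a group, for mof and for msl-1.

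**Figure D2:**
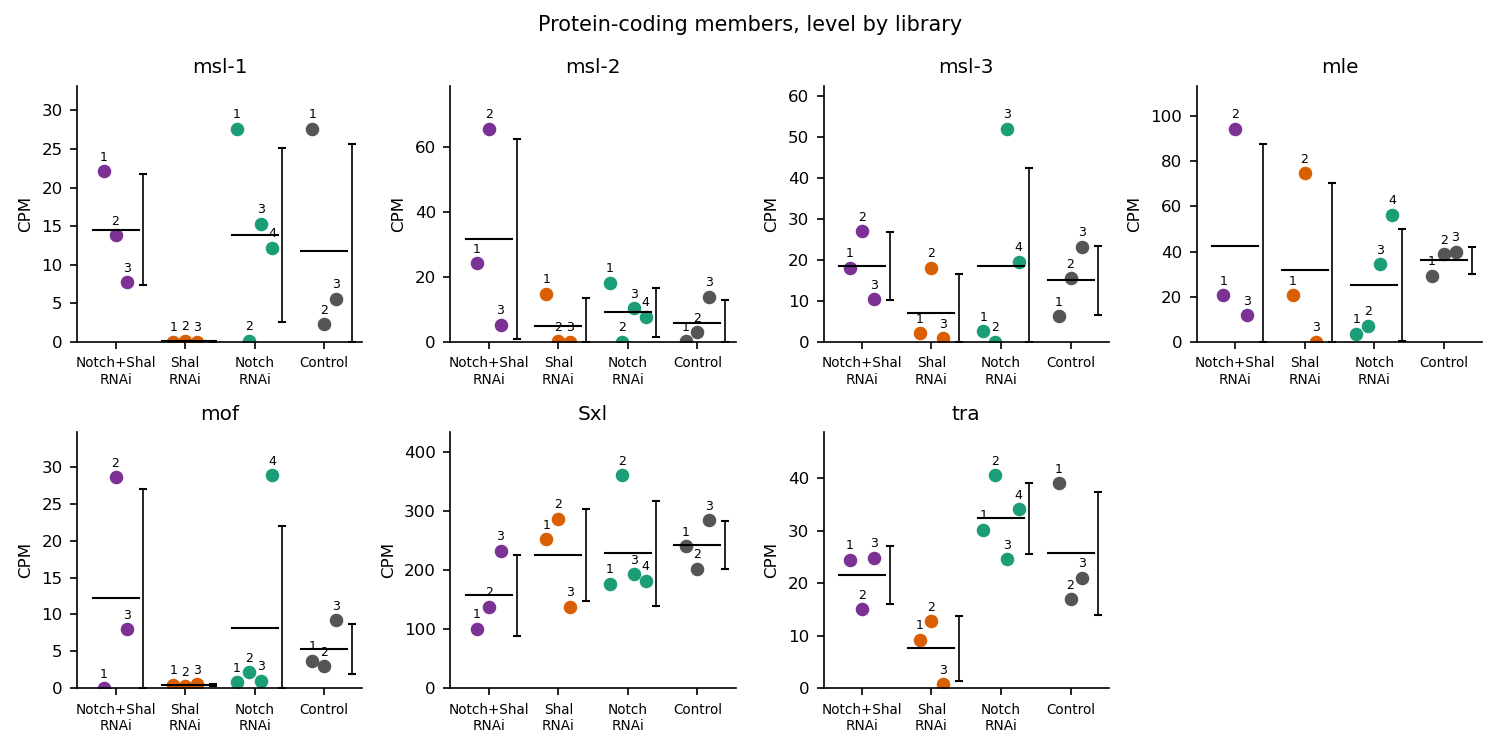
CPM of the 7 protein-coding members in each library, on linear axes that start at 0. Numbers are replicate numbers, horizontal lines are group means and vertical bars span 1 SD either side of the mean, drawn no lower than 0. Shal RNAi is at or near 0 for msl-1 and mof, and Sxl is above 100 CPM in every library.

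Sxl (FBgn0264270, X chromosome, 7074550 to 7098053) was the most evenly expressed member. It had 101, 138 and 233 CPM under Notch+Shal RNAi, 252, 287 and 138 CPM in Shal RNAi and 177, 360, 193 and 182 CPM in Notch RNAi, against 240, 202 and 284 CPM in Control. Its coefficient of variation over the 13 libraries was 33.4%, against 125% for roX1 and 205% for roX2, and no library was below 101 CPM. The log2 fold changes ranged from -1.12 (SE 0.86), in the interaction, to 0.57 (SE 0.62), for Shal RNAi against Control. The direction of the latter depends on the TMM factors. In CPM, Shal RNAi averaged 225 ± 78.0, against 242 ± 41.1 in Control (SD, n = 3 each). Between Notch+Shal RNAi and Shal RNAi the log2 fold change was -1.08 (SE 0.63), with an adjusted p of 0.470 by edgeR.

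tra (FBgn0003741, chromosome 3L, 16590059 to 16591050) was detected in all libraries. It had 24.5, 15.1 and 24.9 CPM under Notch+Shal RNAi, 9.23, 12.8 and 0.739 CPM in Shal RNAi and 30.2, 40.6, 24.6 and 34.1 CPM in Notch RNAi, against 39.0, 17.0 and 21.0 CPM in Control. In CPM all 3 Shal RNAi libraries were below all Control libraries, but in normalised CPM the groups overlapped, and the log2 fold change was -1.18 (SE 1.03), with an adjusted p of 0.635 by edgeR. In its 862 bases of exons, 8.58% overlap the gene l(3)73Ah on the other strand, and the strand setting of the counting is not given in the sources used here. For roX1 the share of exons that overlaps a gene on the other strand (ec) was 7.17%, and for msl-3 (form3) it was 4.31%. These partner genes reached at most 29.7 CPM for ec, 30.7 CPM for form3 and 43.7 CPM for l(3)73Ah.

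Per kilobase of exon, the median over the 13 libraries was 28.4 CPM for tra, 22.0 for Sxl, 16.1 for roX1, 7.90 for msl-3, 6.33 for mle, 5.28 for roX2, 2.03 for msl-2, 1.53 for msl-1 and 0.715 for mof. By the mean, roX1 led at 189 ± 236 and roX2 followed at 92.0 ± 188 CPM per kilobase (SD, n = 13), because a few libraries carried most of their counts. Neighbours in this order did not differ beyond the spread between libraries, which was 26.2 ± 13.6 CPM per kilobase for tra and 23.3 ± 7.79 for Sxl at the top and 2.06 ± 2.07 for msl-1 and 2.21 ± 3.39 for mof at the bottom.

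By edgeR's quasi-likelihood test 0 of the 9 members passed an adjusted p of 0.05 in any of the 6 comparisons, and neither did any other gene (0.0% of those tested). At an unadjusted p under 0.05 the members were roX1 for Notch+Shal RNAi against Control (1 of 9, with 4.32% of all genes), and roX1 and roX2 for Shal RNAi against Control (2 of 9, with 11.7%) and for Notch RNAi against Control (2 of 9, with 4.32%). They were msl-1 for Notch+Shal RNAi against Shal RNAi (1 of 9, with 12.3%), none for Notch+Shal RNAi against Notch RNAi (0 of 9, with 4.87%), and roX1 and roX2 in the interaction (2 of 9, with 9.16%). DESeq2 called 1, 3, 2, 1, 0 and 1 members in that order, with 0.269%, 3.47%, 0.359%, 3.45%, 0.37% and 1.32% of all genes. The median log2 fold change of the 9 members was 0.38 for Notch+Shal RNAi against Control, 0.30 for Shal RNAi against Control and 0.43 for Notch RNAi against Control, beside 0.11, -0.27 and 0.03 over all tested genes.

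**Figure D3:**
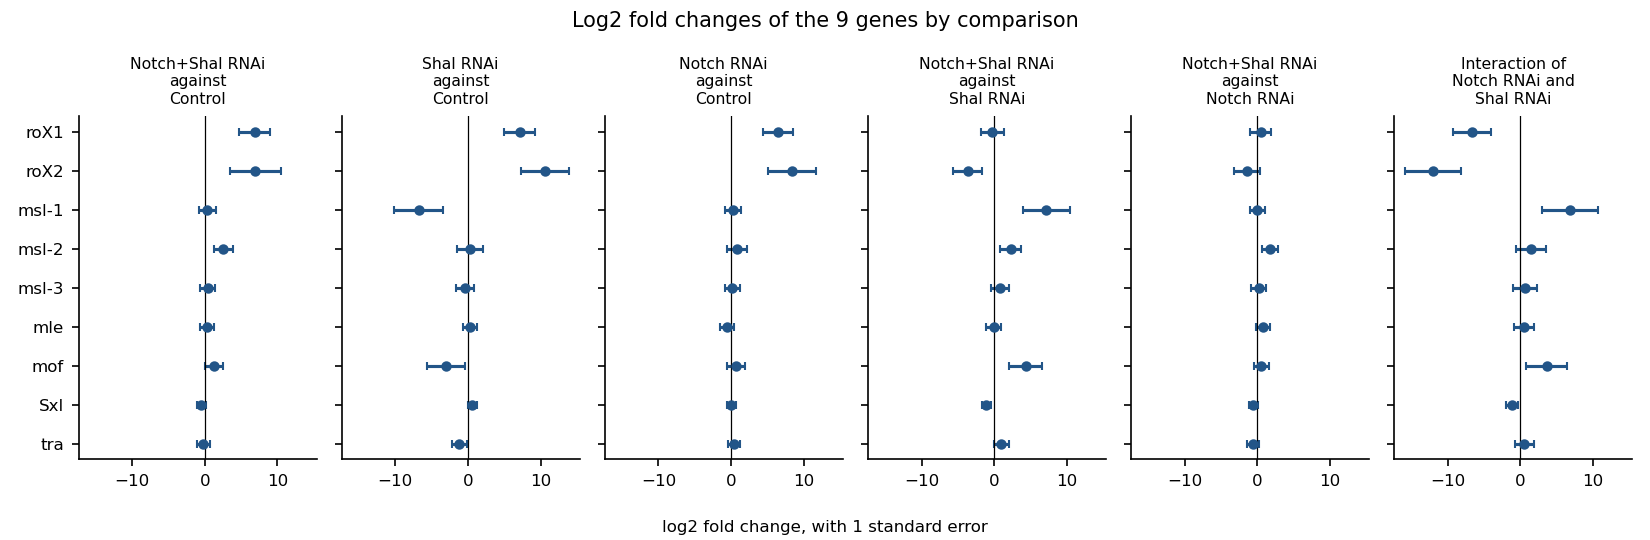
Log2 fold changes of the 9 members by edgeR (horizontal axis) in the 6 comparisons (panels), with bars of 1 SE. The roX RNAs stand at 6.42 to 10.60 against Control in each RNA interference group. Of these values, roX2 for Notch+Shal RNAi (6.96, SE 3.49) lies within 2 SE of 0, as most values of the other members do.

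Of 14 partners of the MSL complex and of its regulation, all 14 were tested and 0 passed an adjusted p of 0.05 by edgeR in any comparison. At an unadjusted p under 0.05 edgeR gave 1 of them for Notch+Shal RNAi, 2 for Shal RNAi and 1 for Notch RNAi, each against Control, beside 4.32%, 11.7% and 4.32% of all tested genes. Clamp, which encodes a DNA-binding protein that brings the complex to the X chromosome, had 49.4, 43.6 and 10.6 CPM under Notch+Shal RNAi, 1.154, 96.2 and 0 CPM in Shal RNAi and 17.9, 42.7, 12.95 and 36.3 CPM in Notch RNAi, against 14.2, 25.8 and 34.2 CPM in Control. JIL-1, a histone kinase enriched on the male X chromosome, ran from 86.9 to 439 CPM under Notch+Shal RNAi, 117 to 689 CPM in Shal RNAi and 121 to 290 CPM in Notch RNAi, against 110 to 336 CPM in Control. Both genes overlapped between all groups.

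Unr, which encodes the RNA-binding partner of Sex-lethal in blocking msl-2 translation, was abundant. It had 813, 402 and 618 CPM under Notch+Shal RNAi, 1642, 795 and 1790 CPM in Shal RNAi and 1268, 1449, 1116 and 456 CPM in Notch RNAi, against 783, 548 and 657 CPM in Control. All 3 Shal RNAi libraries were above all Control libraries, as was so for 6.43% of all tested genes. The log2 fold change was 1.91 (SE 0.65), with an adjusted p of 0.242 by edgeR. Part of its size comes from the TMM factors, which were lower in Shal RNAi than in Control. In CPM the means were 1409 ± 537 in Shal RNAi and 663 ± 118 in Control (SD, n = 3 each). For Notch+Shal RNAi against Control the log2 fold change of Unr was -0.02 (SE 0.63) and for Notch RNAi against Control 0.86 (SE 0.60).

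Of 22 genes upstream or downstream in sex determination, 18 passed the filter, and 0 passed an adjusted p of 0.05 by edgeR in any comparison. At an unadjusted p under 0.05 edgeR gave 1 for Notch+Shal RNAi, 2 for Shal RNAi and 0 for Notch RNAi, each against Control, beside the same 4.32%, 11.7% and 4.32% of all tested genes. tra2, the partner of tra in splicing, had 3.56, 73.2 and 18.8 CPM under Notch+Shal RNAi, 6.46, 22.9 and 0.739 CPM in Shal RNAi and 28.2, 25.5, 27.0 and 72.9 CPM in Notch RNAi, against 30.5, 34.8 and 16.4 CPM in Control. fru, a transcription factor gene spliced under their control, ran from 21.3 to 39.5 CPM under Notch+Shal RNAi, 0.923 to 69.6 CPM in Shal RNAi and 0.398 to 29.1 CPM in Notch RNAi, against 3.256 to 45.1 CPM in Control. dsx, the transcription factor gene of somatic sexual identity, was at 0 CPM in 6 of 13 libraries. Its highest values were 42.7 CPM in Shal RNAi 1 and 13.5 CPM in Notch RNAi 4, and the other libraries reached at most 2.41 CPM. The log2 fold change of 4.88 (SE 1.95) for Shal RNAi against Control (adjusted p = 0.334 by edgeR) rests on Shal RNAi 1, since dsx had 0 counts in Shal RNAi 2 and 3.

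**Figure D4:**
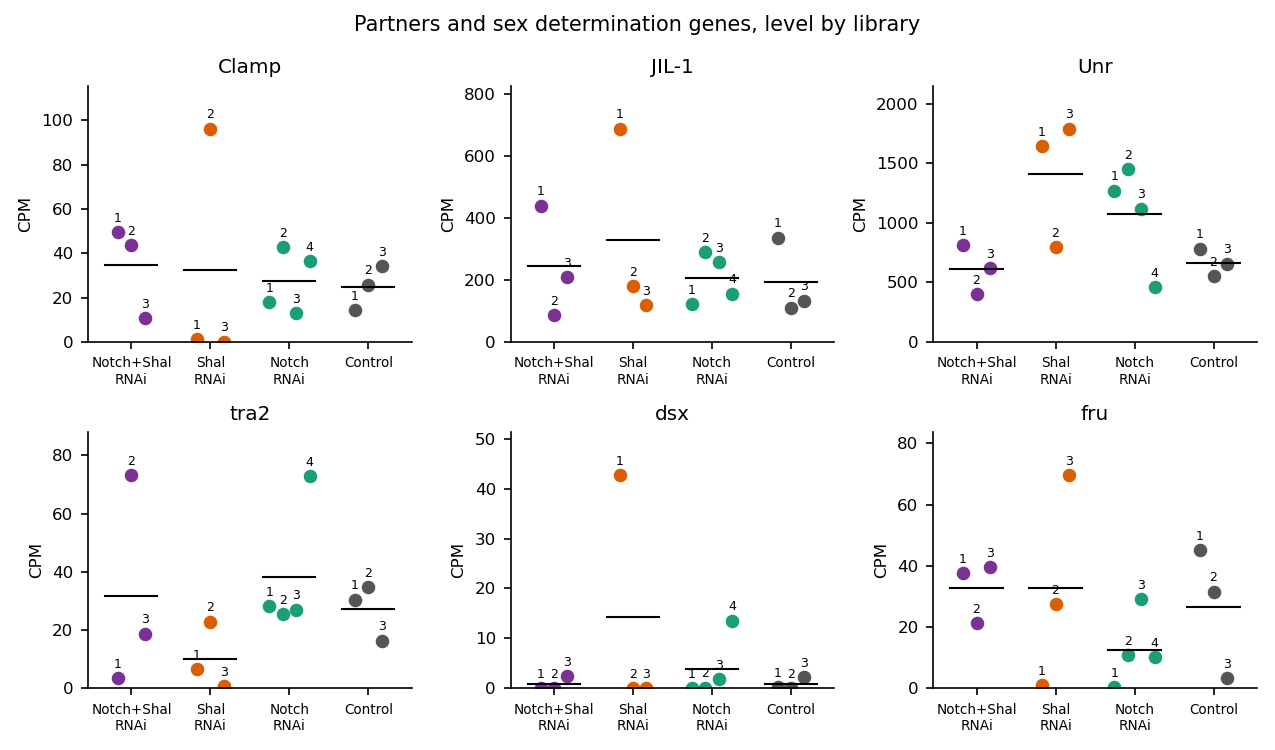
CPM of Clamp, JIL-1, Unr, tra2, dsx and fru in each library, on linear axes that start at 0. Numbers are replicate numbers and lines are group means. Single libraries set the Shal RNAi means of Clamp (32.5 CPM, with 96.2 CPM in Shal RNAi 2) and of dsx (14.2 CPM, with 42.7 CPM in Shal RNAi 1).

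The output of the X chromosome was compared without the members. X-linked genes supplied 13.9% ± 0.980 of the counts of nuclear genes in Notch+Shal RNAi, 14.0% ± 0.845 in Shal RNAi and 14.3% ± 0.8287 in Notch RNAi, against 13.9% ± 0.629 in Control (SD, n = 3, 3, 4 and 3). Two-sided exact permutation tests of these means gave p = 1.0, 0.9 and 0.4 for these groups against Control. The differences, -0.03, 0.09 and 0.37 percentage points, were smaller than the spread between libraries. By library it was 14.0%, 14.9% and 12.9% in Notch+Shal RNAi, 13.8%, 13.4% and 14.99% in Shal RNAi and 15.03%, 13.6%, 13.7% and 15.05% in Notch RNAi, against 13.4%, 13.8% and 14.6% in Control. A relation between this share and roX1 was not tested. Males transcribe their single X chromosome at a raised rate, so the share need not differ between the sexes. Over the 1433 X-linked genes tested, the median log2 fold change against Control was 0.15 for Notch+Shal RNAi, -0.22 for Shal RNAi and 0.08 for Notch RNAi, beside 0.10, -0.30 and 0.01 over 7303 genes of chromosomes 2 and 3.

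Genes of the Y chromosome gave little signal. Of 113 Y-linked genes in the table, 18 had a count and 0 passed the filter. Over all libraries CR41507 held 46 counts, Mst77Y-7 30 and CR45775 21. Summed over all Y-linked genes, the counts were 52, 7 and 3 in Notch+Shal RNAi, 2, 14 and 0 in Shal RNAi and 1, 8, 11 and 8 in Notch RNAi, against 20, 5 and 4 in Control. Scaled to library size, the highest value was that of Notch+Shal RNAi 1 (7.72 CPM), which also had the highest roX1 (3823 CPM). Notch RNAi 3 (2.91 CPM, with 2392 CPM of roX1) and Control 1 (2.68 CPM, with 23.1 CPM of roX1) followed. Shal RNAi 3 (2620 CPM of roX1) had no Y-linked count. Which sexes were pooled in a library is not given in the labels and cannot be told from so few Y-linked counts. The part of sex in the roX levels was not tested.

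**Figure D5:**
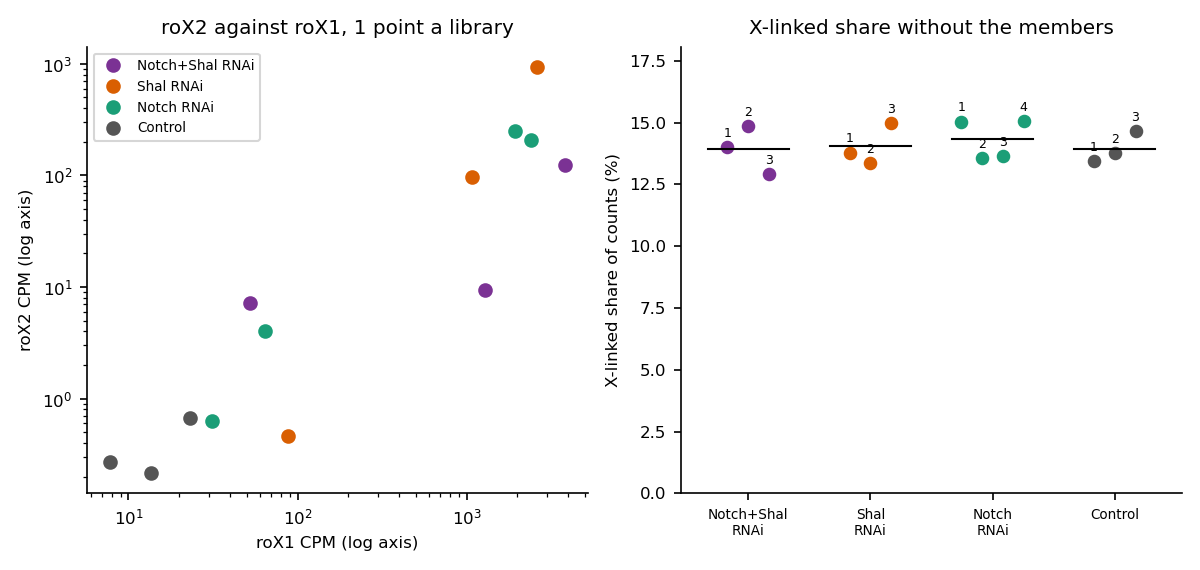
Left, roX2 against roX1 in CPM on log axes, with 1 point a library. Right, the share of nuclear gene counts from X-linked genes without the members, by library and group, with lines at the group means. roX1 spans 7.73 to 3823 CPM and the X-linked share 12.9% to 15.05%, and a relation between them was not tested.

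The gene whose levels ranked the libraries most like each roX RNA was the other roX RNA. Over the 13 libraries and 8907 other genes, the highest Spearman rho with roX1 was that of roX2 (0.945), followed by CG42340 (0.813), Hsp70Bb (0.797), salm (0.786) and lute (0.769). With roX2 it was roX1, followed by snf (0.824), CG42340 (0.813), CG14440 (0.797) and lute (0.797). Of these genes snf, CG42340 and CG14440 are X-linked. The Hsp70 genes have near-identical copies among which reads can be split, so the value of Hsp70Bb is uncertain. Over X-linked genes the median rho with roX1 was -0.12, and over genes of chromosomes 2 and 3 it was -0.08. The remaining members stood far from roX1 in this order, with rho from -0.57 for mof to 0.18 for msl-2. Over all 36 pairs of members rho ran from -0.60 to 0.95, with a median of -0.01. These values describe 13 libraries that share groups and differ in depth.

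For the other members the likest genes were sotv (0.977), MESR6 (0.889) and fra (0.878) for msl-1, Fbxo42 (0.912), PK2-R1 (0.853) and CG5004 (0.842) for msl-2, and CG9784 (0.914), CG7991 (0.899) and Elp2 (0.846) for msl-3. They were Strip (0.934), Pi4KIIalpha (0.901) and FBgn0034496 (0.896) for mle, and CG7099 (0.933), CG4629 (0.904) and sav (0.902) for mof. For Sxl they were CG11360 (0.841), Uhg3 (0.835) and mt:CoIII (0.830), and for tra they were scaf (0.881), asRNA:CR45140 (0.878) and CG10038 (0.857). No member is among them, which is likely for so few members among 8907 genes. The protein-coding members closest to each other were msl-3 and mle (rho 0.665). mle stood at place 183 of 8907 for msl-3, and msl-3 at place 181 for mle.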

How the data were processed

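The 13 libraries of pooled MN1-Ib motoneurons were made by template switching and PCR amplification and read as pairs of 100 bases, per the labels' protocols. The deposited table gives the authors' raw read counts per gene, 1 column a library. The submitters' processing notes name STAR 2.7.0e, limma 3.40.6, edgeR 3.26.7, R 3.6.1 and the build BDGP6. What each tool did, the strand setting and the handling of duplicate and multiply matching reads are not stated there. Gene symbols and coordinates came from BDGP6.54, in which 17626 of 17753 gene IDs were found.

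Groups were taken from the labels. Whether reactions of 1 group came from separate larvae is not said, so p-values reflect the spread between reactions only. CPM divides counts by the library total, and normalised CPM divides also by the TMM factor. All 13 libraries entered 1 edgeR 4.0.16 fit (R 4.3.3) with a mean for each group. It used TMM, the default filter on low counts (at least 10 counts, at least 15 in total), robust quasi-likelihood with bias-adjusted deviances and Benjamini-Hochberg adjustment over 8908 genes at 0.05. Each SE of an edgeR log2 fold change is its size divided by the square root of the test's F statistic. This is an approximation, rough where a group holds few counts. Normalised CPM and X-linked shares were tested too, by 2-sided exact permutation (scipy 1.17.1). Intervals are exact 95% (Clopper-Pearson). The fits were also run on simulated data, with no result given here. The median dispersion of the tested genes was 1.36. This is a biological coefficient of variation, the spread between libraries beyond counting error, of 1.17. Alternatives were DESeq2 1.42.0, RLE factors, no filter, only the groups compared, no robust option for the interaction, a block for the replicate number, leaving out each library and, added after seeing the data, the older form of the quasi-likelihood fit. Genes named by rule were the members, the targets Shal and N, Clamp, JIL-1, Unr, tra2, dsx and fru, and the 5 likest genes of each roX RNA and 3 likest of each other member by Spearman's rho of log2 normalised CPM (prior count 2). The members, lists and rules were chosen with earlier results of these data known.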

Additional observations from a re-analysis of the deposited data

Results flagged for a closer look

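In Notch RNAi, 1 library stood apart from the others for mof, the histone acetyltransferase gene of the MSL complex. Notch RNAi 4 had 20.6 normalised CPM, and its gap to the nearest other library was 0.936 of the group's whole range, above Dixon's critical value for 4 samples at the 95% level. In CPM it had 28.9, against 0.797, 2.16 and 1.06 in Notch RNAi 1, 2 and 3. The group's 9 members and its X-linked share were examined in this way (10 groups of values). For normally distributed values chance flags about 1 in 20 such groups, and the distribution was not checked. The same library also had the highest Notch RNAi value of mle (56.4 CPM), tra2 (72.9 CPM), dsx (13.5 CPM) and N (294 CPM), and the highest summed level of 5 glial markers of all libraries (757 CPM, against 16.3 to 256 CPM in the others). Of that sum, 755 CPM was Gs2, while repo was at 0 in 11 and alrm in all 13 libraries. Notch RNAi 4 also had 9839 detected genes, against 7579, 7858 and 8354 in Notch RNAi 1, 2 and 3. Its TMM factor was 1.41, against 0.935, 1.02 and 1.01 in the same libraries. Its mitochondrial share was 2.19%, against 4.54%, 5.83% and 3.37%. The part of glial RNA or of these library differences in the mof value was not tested.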

How the results depend on the processing

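No member passed the edgeR threshold with any 1 library left out. DESeq2 called 1 member for Notch+Shal RNAi, 3 for Shal RNAi and 2 for Notch RNAi, each against Control. It called 1 for Notch+Shal RNAi against Shal RNAi and 1 in the interaction, and a fit on the compared groups alone called 1 for Shal RNAi against Control. The cause was not tested. Over all tested genes the calls were 0 in every comparison. DESeq2 called 24 genes for Notch+Shal RNAi, 309 for Shal RNAi and 32 for Notch RNAi, each against Control, then 307 and 33 for Notch+Shal RNAi against Shal RNAi and against Notch RNAi, and 118 in the interaction. Without the low-count filter these counts were 1, 26, 1, 4 and 1 for the comparisons other than the interaction. Fitted on the compared groups alone they were 26 for Shal RNAi against Control and 1 for Notch+Shal RNAi against Shal RNAi.

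With 1 library left out the calls ran from 0 to 1 for Notch+Shal RNAi, 0 to 146 for Shal RNAi and 0 to 2 for Notch RNAi, each against Control. They ran from 0 to 26 and 0 to 2 for Notch+Shal RNAi against Shal RNAi and against Notch RNAi. Leaving out Shal RNAi 2 gave the 146 and the 26. Calls of 1 or 2 genes came without Control 1, Control 3, Notch RNAi 4 or Notch+Shal RNAi 2.

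The replicate numbers did not pair the libraries: deviations from the group means correlated at -0.18 to 0.24 within a number and at -0.29 to 0.35 between numbers. A replicate block gave 9 called genes in the interaction and 1 each for Notch RNAi against Control and Notch+Shal RNAi against Shal RNAi, none of them a member. The block turned the log2 fold change of mle for Notch+Shal RNAi against Control to -0.040 and that of mof for Notch RNAi against Control to -1.70.

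The roX RNAs were higher than in Control in all 3 groups under every setting that gave a value. The fit on Shal RNAi and Control alone gave none for roX2, which did not pass its low-count filter. Directions of some differences turned, and not only of small ones. In mean normalised CPM, Shal RNAi minus Control was 103 for Sxl, and Notch+Shal RNAi minus Shal RNAi was -274 for roX1. For Notch+Shal RNAi against Notch RNAi the log2 fold changes of msl-1 and msl-3 were -0.0053 and -0.055 by DESeq2, and -0.028 and -0.060 by the older form of the quasi-likelihood fit, which was chosen after seeing the data. As differences of mean CPM on library totals, Shal RNAi minus Control was -0.70 for msl-2, -4.35 for mle and -16.9 for Sxl, Notch RNAi minus Control was -14.2 for Sxl, Notch+Shal RNAi minus Shal RNAi was 459.5 for roX1 and 10.6 for mle, and Notch+Shal RNAi minus Notch RNAi was 0.72 for msl-1. As differences of mean log2 values, Notch+Shal RNAi minus Control was -0.24 for mle, Shal RNAi minus Control was -0.23 for msl-2 and -1.21 for mle, and Notch RNAi minus Control was -0.76 for msl-3, -0.37 for mof and -0.049 for Sxl. On that scale Notch+Shal RNAi minus Shal RNAi was 0.97 for mle, and Notch+Shal RNAi minus Notch RNAi was 0.63 for msl-1 and 1.18 for msl-3.

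With 1 library left out, differences in mean normalised CPM for Notch+Shal RNAi minus Control ran from -1.94 to 9.91 for msl-1, -15.7 to 15.8 for mle, -0.31 to 11.1 for mof and -6.35 to 4.26 for tra. For Shal RNAi minus Control they ran from -4.56 to 8.46 for msl-2 and -13.2 to 22.6 for mle. For Notch RNAi minus Control they ran from -2.72 to 10.2 for msl-1, -7.16 to 10.05 for msl-3, -3.18 to 3.39 for mof and -40.2 to 34.9 for Sxl. For Notch+Shal RNAi minus Shal RNAi they ran from -1267 to 939 for roX1 and -20.3 to 17.4 for mle. Notch+Shal RNAi minus Notch RNAi ran from -587 to 1145 for roX1, -4.68 to 5.14 for msl-1, -6.43 to 10.8 for msl-3, -5.66 to 25.8 for mle and -1.94 to 9.43 for mof.

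The edgeR log2 fold changes with 1 library left out ran, against Control, from -0.17 to 2.04 for msl-1, -0.995 to 0.61 for mle, -0.22 to 1.87 for mof and -0.42 to 0.31 for tra in Notch+Shal RNAi, and from -5.42 to 1.96 for msl-2 and -0.90 to 0.86 for mle in Shal RNAi. In Notch RNAi against Control they ran from -0.53 to 2.01 for msl-1, -0.042 to 2.48 for msl-2, -1.05 to 0.66 for msl-3, -1.65 to 1.29 for mof and -0.31 to 0.23 for Sxl. For Notch+Shal RNAi against Shal RNAi they ran from -1.73 to 1.31 for roX1 and -1.30 to 1.21 for mle. Against Notch RNAi they ran from -1.05 to 1.11 for roX1, -0.41 to 0.89 for msl-1, -0.29 to 1.43 for msl-3, -0.43 to 1.47 for mle and -0.97 to 2.94 for mof. In the interaction they ran from -0.22 to 7.18 for msl-2 and -0.74 to 1.75 for mle.

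The X-linked share for Notch+Shal RNAi minus Control was 0.12 percentage points with the members kept. As a median log2 of X-linked minus autosomal genes, Notch+Shal RNAi was 0.070 above Control and 0.059 above Notch RNAi. With 1 library left out the difference in share ran from -0.49 to 0.48 for Notch+Shal RNAi and -0.38 to 0.44 for Shal RNAi against Control, and from -0.59 to 0.39 and -0.87 to 0.11 for Notch+Shal RNAi against Shal RNAi and against Notch RNAi. Most libraries hold 3 counts or fewer for roX2 in Control and for msl-1 and mof in Shal RNAi, so levels below these were not detectable at this depth.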
